A study of Mus musculus with 3 samples.

Results

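The VEGF and angiopoietin genes were followed through 3 single-cell RNA libraries of mouse kidney cortex. The 10 genes were chosen by name for their place in these pathways, out of 22535 genes listed in the 3 tables. They are the ligands Vegfa and Pgf, the receptor tyrosine kinases Kdr and Flt1, the co-receptors Nrp1 and Nrp2, the angiopoietins Angpt1 and Angpt2, and the receptors Tek and Tie1. The mice were adult WT1CreERT2; Rosa26-tdTfl/+ animals given tamoxifen, so that Cre driven from the Wt1 locus switched on tdTomato (tdT) in podocytes and in WT1+ parietal epithelial cells (PECs), and all 3 groups carried these alleles. The Sham library came from kidneys after sham surgery, and the other libraries, IRI24h-TDN and IRI24h-TD, from kidneys taken 24 h after ischemia-reperfusion injury (IRI), severe and on both sides. Sham and IRI24h-TDN held renal cell mixtures enriched by sorting for tdT+ cells, whereas IRI24h-TD held sorted tdT+ cells only. Each condition had 1 library, made from several pooled kidneys, so no spread between animals could be measured and no test between conditions was run.

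In the glomerulus, VEGF-A made by podocytes crosses the basement membrane and acts on the fenestrated capillary endothelium, mainly through Kdr, while Flt1 binds the same ligand tightly but signals weakly. Neuropilins present VEGF to these receptors and also bind class 3 semaphorins. Angpt1, typically made by cells next to vessels, activates Tek and keeps vessels quiescent, Angpt2 can block that signal, and Tie1 is a partner of Tek without a well-defined ligand of its own.

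Unique molecular identifiers (UMIs) totalled 69980443 (Sham), 92355554 (IRI24h-TDN) and 93470709 (IRI24h-TD). Of 30008 barcodes, 26760 with at least 200 genes and at most 50% mitochondrial UMIs were kept (8047, 9024 and 9689), and 82 to 96 kept barcodes were shared by each pair of libraries. Cells were clustered without the genes described here and classes were named from marker genes, so that each name reads as "like" that type. Podocyte-like cells made up 4254, 5102 and 8282 cells in that order of libraries. PEC-like cells numbered 775, 264 and 342, and proximal tubule epithelial (PTEC)-like cells 1125, 197 and 123. Endothelial-like cells numbered 201, 102 and 8, and mural-like cells (smooth muscle with mesangial cells and pericytes) 294, 460 and 16. The endothelial label held up: all 11 endothelial markers had UMIs in these cells, and Pecam1, an adhesion molecule of endothelium, was found in 96.8% of them against 0.238% of podocyte-like cells. Levels are given as CPM, the UMIs of a gene over all UMIs of that class and library times 1000000, with exact Poisson 95% intervals, and shares of cells with exact Clopper-Pearson 95% intervals. All intervals cover counting error only.

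**Figure D1:**
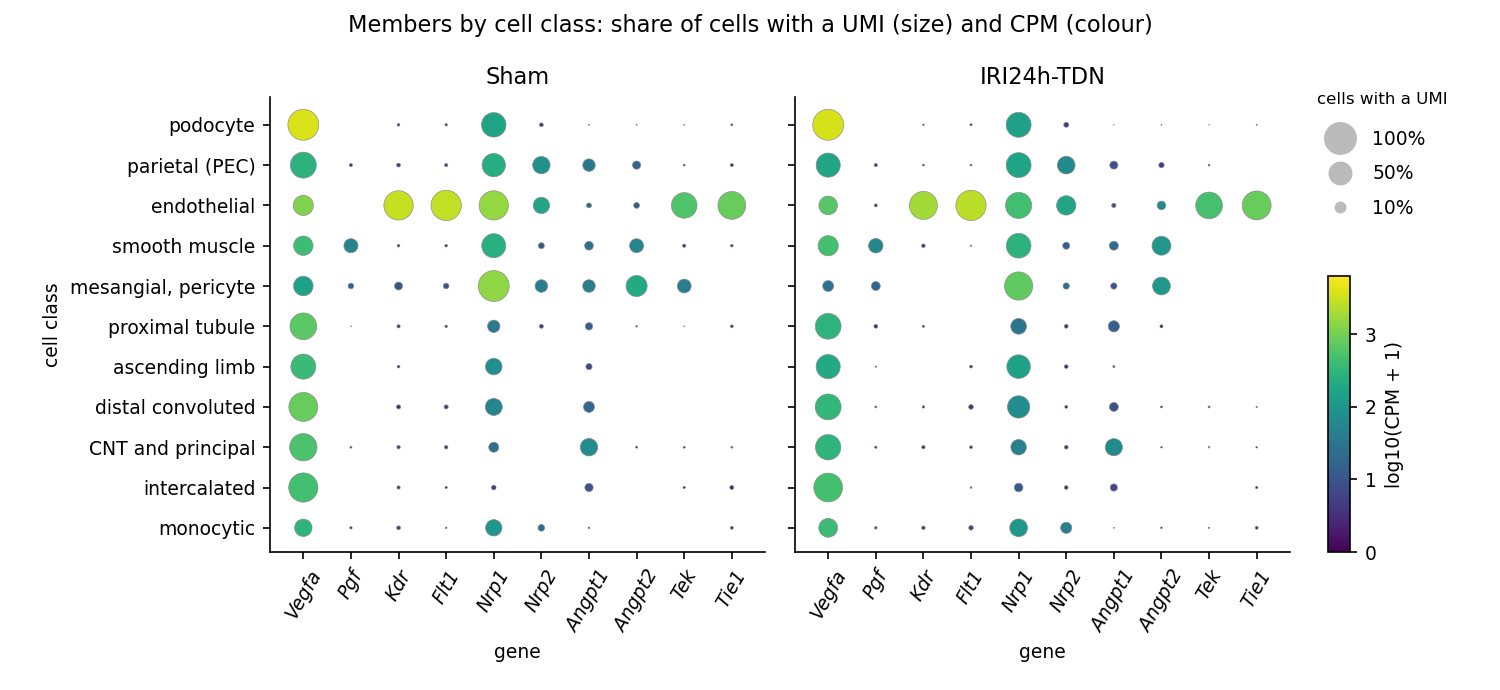
Share of cells with a UMI (dot size) and level as log10(CPM + 1) (dot colour) of the 10 genes in 11 cell classes of Sham and IRI24h-TDN. Vegfa was found in every class with its highest level in podocyte-like cells, and Kdr, Flt1, Tek and Tie1 were highest in endothelial-like cells among the classes drawn.

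Vegfa, the main VEGF ligand of the kidney (GRCm38, chr17:46016993-46032369, minus strand), reached its highest level in podocyte-like cells. Sham held 3901 CPM (3881 to 3921), IRI24h-TDN 3605 CPM (3589 to 3622) and IRI24h-TD 3198 CPM (3186 to 3210). The podocyte-like cell of median rank held 32, 33 and 30 Vegfa UMIs, and at least 99.95% of these cells in each library had 1 or more. The CPM of IRI24h-TDN was 0.924 times that of Sham (interval 0.918 to 0.931), and that of IRI24h-TD was 0.887 times that of IRI24h-TDN (0.882 to 0.892). With TMM scaling in place of total UMIs, the first ratio was 0.994. Podocyte-like cells, 17638 of the 26760 kept cells in these tdT-sorted libraries, held 93.3% of all Vegfa UMIs in kept cells. The range of their level over the 3 libraries did not overlap that of any other named class. A cluster of 741 cells with podocyte markers, left unnamed for low depth, held 3224 CPM over the libraries.

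Among tubule classes, Vegfa was lower after IRI in proximal and distal convoluted cells. With a 2-fold difference taken as a change, it fell from 667 CPM (Sham) to 290 CPM (IRI24h-TDN) in PTEC-like cells, 2.30-fold, and was 683 CPM in the 123 such cells of IRI24h-TD. The ratio did not pass 2-fold with at least 500 genes per barcode (0.558) or without the top 6% of doublet scores (0.578). In distal convoluted tubule-like cells it fell from 825 to 317 CPM, with an IRI24h-TDN to Sham ratio of 0.384 (0.350 to 0.422). The ratio was 0.567 (0.519 to 0.619) in connecting tubule and principal-like cells, from 524 to 297 CPM, and 0.523 (0.462 to 0.594) in ascending limb-like cells, from 377 to 197 CPM. Intercalated-like cells held 446 CPM in Sham and 453 CPM in IRI24h-TDN, and the interval of their ratio, 0.939 to 1.10, included 1.

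RNA of podocytes was found outside podocytes, so these levels need a second reading. It was followed with Ptpro and Clic3, a pair of podocyte genes picked after the values were seen. Their UMIs were present in 40.4% of PEC-like, 36.4% of PTEC-like and 21.9% of endothelial-like cells of Sham. In podocyte-like cells there were 1.34 Vegfa UMIs for each UMI of the pair in Sham, against 1.39 (IRI24h-TDN) and 1.15 (IRI24h-TD) after IRI. At that ratio the Ptpro and Clic3 UMIs of endothelial-like cells corresponded to 104.8% of their Vegfa in Sham and 61.995% in IRI24h-TDN. The shares were 96.2% and 84.2% in smooth muscle-like cells and 128.6% and 81.7% in monocytic-like cells. They were lower in connecting tubule and principal-like cells, 24.5% and 45.7%, and in intercalated-like cells, 35.4% and 48.04%. Vegfa beyond the podocyte ratio was 396 CPM in Sham and 161 CPM in IRI24h-TDN in the former, and 289 and 236 CPM in the latter.

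The PTEC-like class joined clusters with little and with much podocyte RNA. One cluster led by transporters such as Slc22a19 and Slc5a8 had 17.9% of its Vegfa at the podocyte ratio in Sham and 14.5% in IRI24h-TDN. There Vegfa was 467 CPM in 625 cells of Sham and 177 CPM in 80 cells of IRI24h-TDN, a ratio of 0.379 (0.334 to 0.429). The other, led by Havcr1 and Krt20, which mark injured tubule, held 1198 and 403 CPM, of which 93.2% and 71.2% stood at the podocyte ratio. Of the 123 PTEC-like cells of IRI24h-TD, 98 lay in this second cluster. The Ptpro and Clic3 UMIs of the 123 cells corresponded to 101.2% of their 683 CPM of Vegfa. In distal convoluted tubule-like cells the share at that ratio was 57.4% in Sham and 78.1% in IRI24h-TDN.

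**Figure D2:**
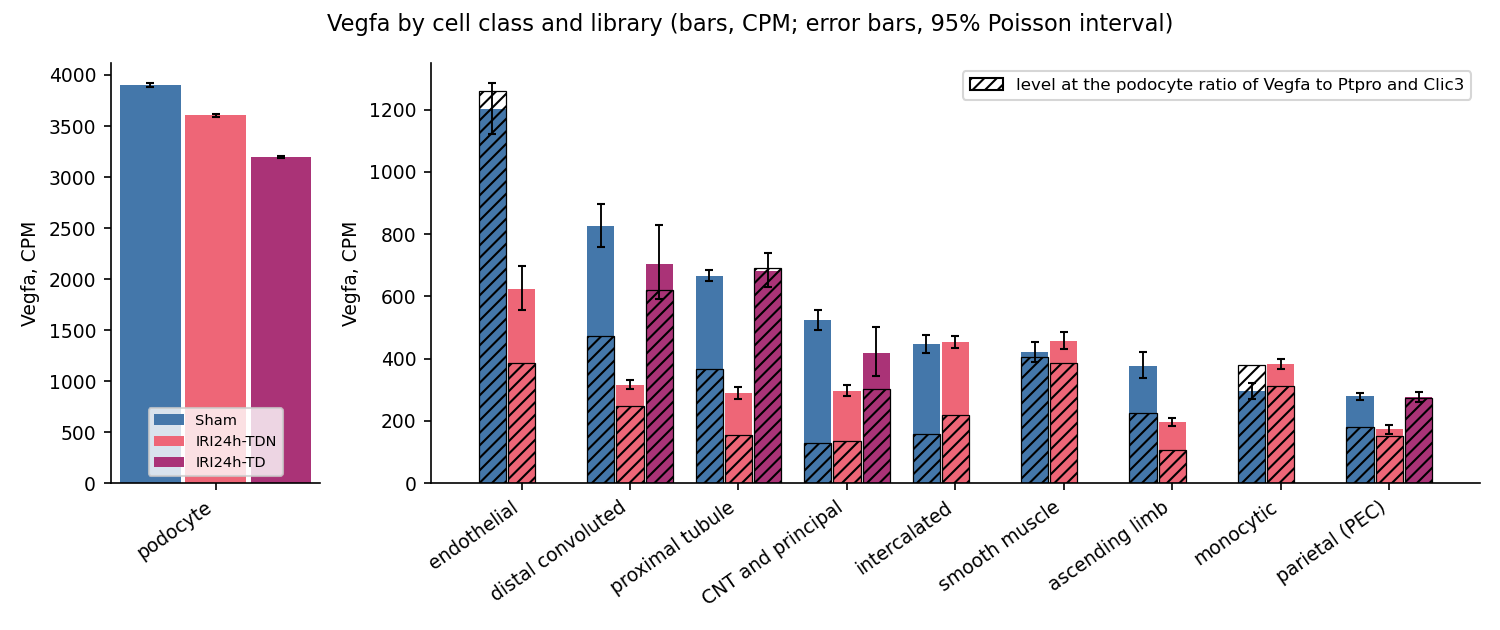
Vegfa CPM by cell class and library, podocyte-like cells on their own axis at left, with 95% Poisson intervals as error bars and only class and library pairs of at least 20 cells drawn. Hatching marks the CPM that the Ptpro and Clic3 UMIs of the class correspond to at the Vegfa ratio of podocyte-like cells, which comes to 104.8% of the bar of endothelial-like cells in Sham and 24.5% of that of connecting tubule and principal-like cells.

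PEC-like cells, the flat cells that line Bowman's capsule, held 279 CPM of Vegfa in Sham and, after IRI, 173 CPM in IRI24h-TDN and 278 CPM in IRI24h-TD, of which 64.8%, 87.99% and 98.5% stood at the podocyte ratio. Across 32 profiles of a class in a library, which share libraries and ambient RNA, the genes whose levels ran most like Vegfa included Nphs1 (Pearson r of log2(CPM + 10), 0.95) and Robo2 (0.94), both podocyte genes.

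Pgf encodes placental growth factor, a VEGF relative that binds Flt1 but not Kdr (chr12:85166635-85177790, minus strand). Smooth muscle-like cells carried 71.1% of its UMIs. The level there was 49.6 CPM (39.2 to 62.0) in Sham and 56.1 CPM (47.3 to 66.1) in IRI24h-TDN, with 20.8% and 22.0% of cells positive, and the ratio, 1.13 (0.851 to 1.51), had an interval that included 1. The smooth muscle cluster led by Casq2, Higd1b and Ndufa4l2 held 90.3 and 89.0 CPM, and the one led by Cnn1 held 35.6 and 37.6 CPM. Podocyte-like cells gave 2 Pgf UMIs in all 3 libraries together.

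The signaling receptors Kdr and Flt1 and the Tie receptors Tek and Tie1 were endothelial. Endothelial-like cells held 93.0% of Kdr, 92.5% of Flt1, 93.0% of Tek and 89.98% of Tie1 UMIs of kept cells, although they were 311 of 26760 cells. A UMI of at least 1 of the 4 was present in 308 of these 311 cells. In 32 class and library profiles Kdr ran most like Tie1 (r = 0.99), Cd300lg (0.97) and Flt1 (0.97). Since the 4 receptor genes were found in the same cells, the 250 bases upstream of each start (RefSeq, GRCm38.p6) are shown with GGAA, the core that ETS factors bind, in capitals on either strand as GGAA or TTCC:
Kdr (chr5:75978456-75978705, minus strand): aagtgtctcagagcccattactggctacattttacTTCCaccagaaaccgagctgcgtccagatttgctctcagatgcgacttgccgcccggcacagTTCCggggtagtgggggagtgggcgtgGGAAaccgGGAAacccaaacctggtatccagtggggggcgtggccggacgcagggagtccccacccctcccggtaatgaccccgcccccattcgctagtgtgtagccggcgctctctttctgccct
Flt1 (chr5:147726012-147726261, minus strand): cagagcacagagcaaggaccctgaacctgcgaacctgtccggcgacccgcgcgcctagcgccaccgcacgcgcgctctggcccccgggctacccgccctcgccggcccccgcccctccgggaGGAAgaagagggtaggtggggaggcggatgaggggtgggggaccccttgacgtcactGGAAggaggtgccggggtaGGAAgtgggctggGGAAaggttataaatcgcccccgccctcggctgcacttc
Tek (chr4:94739039-94739288, plus strand): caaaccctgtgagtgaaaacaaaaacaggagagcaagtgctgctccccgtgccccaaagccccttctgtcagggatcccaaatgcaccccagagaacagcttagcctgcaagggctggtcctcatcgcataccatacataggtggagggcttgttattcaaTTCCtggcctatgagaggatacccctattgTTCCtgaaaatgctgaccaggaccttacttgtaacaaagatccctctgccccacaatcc
Tie1 (chr4:118489850-118490099, minus strand): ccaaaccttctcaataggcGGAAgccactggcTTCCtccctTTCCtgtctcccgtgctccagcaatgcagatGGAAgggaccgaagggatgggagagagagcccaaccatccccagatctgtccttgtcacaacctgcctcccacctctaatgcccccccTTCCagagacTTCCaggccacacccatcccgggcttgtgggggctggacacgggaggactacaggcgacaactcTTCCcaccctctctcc
Kdr and Flt1 held 4 such cores, Tek 2 and Tie1 7. The core is common, with at least 1 in 93.4% of 32851 promoter windows of this length and a median of 3, and as many as in Tie1 in 3.82% of them, in Kdr and Flt1 in 33.4% and in Tek in 76.8%. A match of 4 letters is a description of the sequence and shows no binding.

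Kdr, through which VEGF-A drives most of its endothelial effects, stood at 2920 CPM (2796 to 3049) in endothelial-like cells of Sham and 1906 CPM (1786 to 2031) in those of IRI24h-TDN. The ratio was 0.652 (0.603 to 0.705), which did not pass 2-fold. It was detected in 90.05% and 82.4% of these cells. Thinned to 2400 UMIs, the shares were 82.5% and 72.3%, but they left out 104 of the 201 cells of Sham, which had fewer UMIs, and 1 of the 102 of IRI24h-TDN. Flt1, the tight-binding receptor, held 2771 CPM (2650 to 2897) and 2513 CPM (2375 to 2657), a ratio of 0.907 (0.844 to 0.974), in 96.5% and 96.1% of cells. Kdr and Flt1 were found together in 88.1% of endothelial-like cells of Sham (82.8% to 92.2%) and 78.4% of those of IRI24h-TDN (69.2% to 86.0%). The total UMIs behind these CPM also held podocyte RNA, and unequally. Ptpro and Clic3 together stood at 942 CPM in endothelial-like cells of Sham and 279 CPM in those of IRI24h-TDN. In podocyte-like cells the pair stood at 2918 and 2597 CPM. The effect of this on the CPM ratios of Kdr, Flt1, Tek and Tie1 was not tested.

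The receptor levels depended on which endothelial-like cells were counted. Cells with a UMI of Ehd3, a gene of glomerular endothelium, and none of Plvap, a fenestral diaphragm protein of peritubular capillaries, numbered 40 in Sham and 16 in IRI24h-TDN. Kdr in them was 2444 and 2643 CPM, a ratio of 1.08 (0.925 to 1.26). In the 67 and 30 cells with Plvap and without Ehd3, Kdr fell from 3411 to 1075 CPM, with a ratio of 0.315 (0.259 to 0.381). In the 72 and 44 cells with both, Kdr was 3669 and 2530 CPM, a ratio of 0.6897 (0.620 to 0.767), and Flt1 was 3842 and 3585 CPM. Flt1 was lower in the Ehd3 cells of both libraries, at 1165 and 1289 CPM, than in the Plvap cells, at 3883 and 2426 CPM. Vegfa, much of which stood at the podocyte ratio in endothelial-like cells, also differed between the subsets. It was 1723 and 863 CPM in the Ehd3 cells, 1138 and 456 CPM in cells with both, and 595 and 324 CPM in the Plvap cells. The part of podocyte RNA in the receptor levels of each subset was not tested. This split was made after seeing the data, and with 16 to 72 cells of 1 library each the difference between the subsets was not tested.

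Tek, the receptor of the angiopoietins, held 563 CPM (509 to 621) in endothelial-like cells of Sham and 476 CPM (418 to 541) in those of IRI24h-TDN, a ratio of 0.846 (0.717 to 0.996). Tie1 held 814 CPM (749 to 884) and 815 CPM (738 to 899), a ratio of 1.002 (0.880 to 1.14). Both were found in the same cell in 58.7% (51.6% to 65.6%) and 67.6% (57.7% to 76.6%) of cells. In Ehd3 cells without Plvap, Tek was 222 and 416 CPM and Tie1 355 and 671 CPM, and in Plvap cells without Ehd3, Tek was 853 and 435 CPM and Tie1 1301 and 996 CPM. In cells with both, Tek was 742 and 604 CPM and Tie1 981 and 871 CPM. None of the 6 ratios reached 2-fold, though the point values went up in the Ehd3 cells and down in the other subsets. The IRI24h-TD library had 8 endothelial-like cells, too few for a level.

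**Figure D3:**
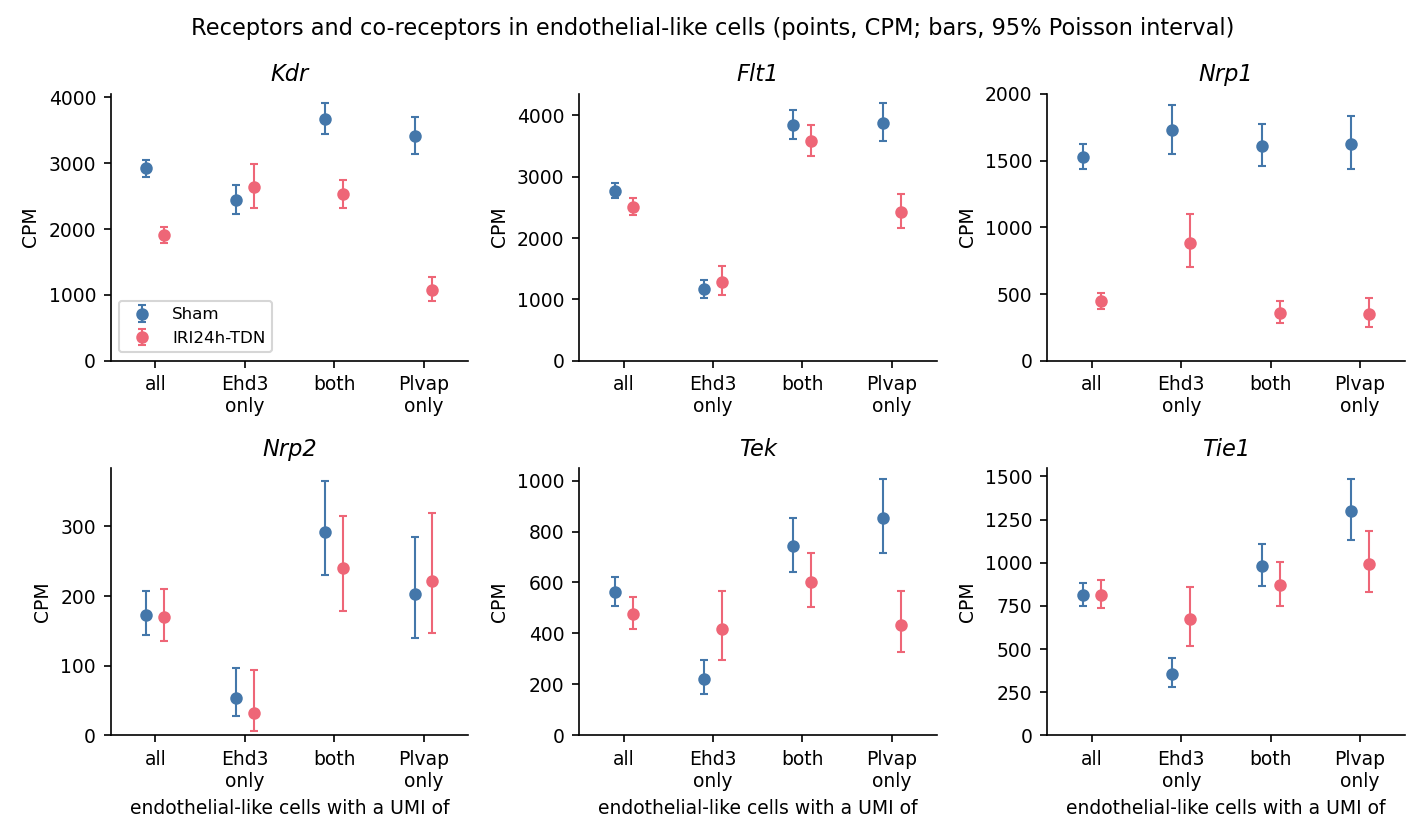
CPM of receptors and co-receptors in endothelial-like cells of Sham and IRI24h-TDN, for all such cells and for those with a UMI of Ehd3 only, of both Ehd3 and Plvap, or of Plvap only (bars, 95% Poisson intervals; cells with neither are in "all" only). Nrp1 was lower in IRI24h-TDN in each subset. Kdr was 2444 and 2643 CPM in the Ehd3 cells and lower in IRI24h-TDN in the Plvap cells (3411 and 1075 CPM). Its ratio was 0.6897 in cells with both. The part of podocyte RNA in these levels was not tested.

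Nrp1, a co-receptor of Kdr and of class 3 semaphorins (chr8:128358604-128503363, plus strand), was called lower in endothelial-like cells after IRI, a call being a CPM ratio of at least 2 in either direction. Nrp1 fell from 1528 CPM (1438 to 1622) in Sham to 448 CPM (391 to 511) in IRI24h-TDN, a ratio of 0.293 (0.253 to 0.339). Cells with a UMI went from 89.6% to 71.6%. Among the 97 cells of Sham and 101 of IRI24h-TDN deep enough to be thinned to 2400 UMIs, the shares were 91.8% and 57.4%. Without its share at the podocyte ratio to Ptpro and Clic3 it was 1474 and 433 CPM, over total UMIs that still held podocyte RNA. Nrp1 was 1728 and 885 CPM in Ehd3 cells without Plvap, a ratio of 0.512 that fell just short of 2-fold, and it fell from 1626 to 348 CPM in Plvap cells without Ehd3 and from 1611 to 359 CPM in cells with both. Over all alternatives the endothelial ratio stayed between 0.238 and 0.297.

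Other cells also held Nrp1. The 30 and 24 mesangial and pericyte-like cells, whose leading genes included the juxtaglomerular genes Gja5 and Ren1, had 1405 CPM (1250 to 1575) in Sham and 757 CPM (612 to 926) in IRI24h-TDN, a range that overlapped that of endothelial-like cells. Smooth muscle-like cells had 260 and 279 CPM, a ratio of 1.07 (0.948 to 1.22). PEC-like cells had 228, 164 and 184 CPM, but their clusters differed: the one led by Sfrp5 and Ubd rose from 48.6 to 104 CPM (2.14-fold, 1.70 to 2.68), while the one led by Upk1b and Wnt16 held 266 and 174 CPM. Podocyte-like cells had 166, 142 and 139 CPM in the 3 libraries. The ratio was above 1 in distal nephron classes. Nrp1 rose from 22.4 to 44.9 CPM in connecting tubule and principal-like cells (2.003-fold, 1.42 to 2.87), was 75.5 and 147 CPM in ascending limb-like cells (1.95-fold, 1.51 to 2.54), and rose from 3.37 CPM (7 UMIs) to 10.1 CPM (48 UMIs) in intercalated-like cells, where the Ptpro and Clic3 UMIs at the podocyte ratio corresponded to 198.6% of Nrp1 in Sham and 84.95% in IRI24h-TDN. The intercalated-like cluster led by Hmx2 and Slc26a4 gave 5 and 27 UMIs, a ratio of 1.23 (0.466 to 4.08), and the one led by Slc4a1 and Aqp6 gave 2 and 21. The value in connecting tubule and principal-like cells was below 2-fold under 3 alternatives, the lowest being 1.496 at most 20% mitochondrial UMIs.

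Nrp2, the co-receptor better known for binding VEGF-C (chr1:62703285-62818695, plus strand), held 173 CPM (144 to 207) and 170 CPM (135 to 210) in endothelial-like cells, a ratio of 0.980 (0.733 to 1.30). PEC-like cells held 43.1% of its UMIs, at 86.6, 62.9 and 60.6 CPM in the 3 libraries. It rose in monocytic-like cells from 20.5 CPM (14.1 to 28.8) to 42.5 CPM (37.6 to 47.8), 2.07-fold, and was below 2-fold under 4 alternatives, with 1.69 at clustering resolution 0.5 as the lowest. In the C1qa-led cluster of these cells it was 20.9 and 45.5 CPM, and in the one led by Chil3 and Arg1 75.4 and 46.1 CPM, a ratio of 0.612 (0.303 to 1.40). Flt1 in monocytic-like cells was 3 UMIs in Sham and 40 in IRI24h-TDN, or 1.87 and 6.25 CPM. Of these, 3 and 32 lay in the Chil3 and Arg1 cluster, where the level was 25.1 and 23.4 CPM and the number of cells 24 and 194.

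Angpt1, the activating ligand of Tek (chr15:42424723-42676977, minus strand), had its highest level over the libraries in connecting tubule and principal-like cells, which held 33.2% of its UMIs. It stood there at 73.1 CPM (61.5 to 86.2) in Sham and 65.3 CPM (57.1 to 74.3) in IRI24h-TDN, a ratio of 0.894 (0.721 to 1.11), and 32.1% and 31.0% of cells had a UMI. The 29 such cells of IRI24h-TD had 21.4 CPM from 6 UMIs. Cells with more Aqp2 than Calb1 UMIs, as in principal cells, held 63.7 and 63.8 CPM, and those with more Calb1, as in connecting tubule, 94.9 and 68.2 CPM. Podocyte-like cells gave 9 Angpt1 UMIs in all, and smooth muscle-like cells 25.1 and 19.0 CPM. In 32 class and library profiles Angpt1 ran most like Myh10 (r = 0.80), Cyp7b1 (0.78) and Cav1 (0.78).

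PEC-like cells had less of both angiopoietins after IRI. Angpt1 fell from 32.1 CPM (28.1 to 36.4) in Sham to 8.19 CPM (5.44 to 11.8) in IRI24h-TDN, and was 6.27 CPM (4.10 to 9.19) in IRI24h-TD. Angpt2 fell from 15.8 CPM (13.03 to 18.9) to 4.10 CPM (2.24 to 6.87), and was 0.965 CPM (0.263 to 2.47) in IRI24h-TD. The mix of clusters differed, since the divisions of a cluster led by Col3a1 and Dcn held a larger part of the class in Sham. Within the cluster led by Upk1b and Wnt16 alone, Angpt1 fell from 41.6 to 10.2 CPM, a ratio of 0.246 (0.115 to 0.471), and Angpt2 from 42.0 to 13.3 CPM, a ratio of 0.317 (0.163 to 0.566). In the one led by Sfrp5 and Ubd, Angpt1 was 3.51 and 5.46 CPM, and Angpt2 4 UMIs and none.

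Angpt2, the context-dependent partner ligand of Tek (chr8:18690263-18741562, minus strand), was a mural gene here. Smooth muscle-like cells held 57.5% of its UMIs. It rose in them from 52.2 CPM (41.5 to 64.9) to 106 CPM (93.6 to 119), 2.03-fold (1.58 to 2.63), with 20.5% and 37.6% of cells positive. The ratio was 2.17 (1.49 to 3.22) in the Cnn1-led cluster and 1.55 (1.10 to 2.23) in the Casq2-led one, which made up 73 of 264 cells in Sham and 174 of 436 in IRI24h-TDN. It was between 1.46 and 1.82 under 5 alternatives. Mesangial and pericyte-like cells held 204 CPM (148 to 275) in Sham and 105 CPM (55.7 to 179) in IRI24h-TDN, from 43 and 13 UMIs.

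Endothelial-like cells gave 8 Angpt2 UMIs in Sham and 33 in IRI24h-TDN, a 5.87-fold higher CPM (2.66 to 14.7), but 24 of the 33 lay in 1 cell. Without the cell of most UMIs in each library there were 6 and 9 UMIs, 8.55 CPM (3.14 to 18.6) and 18.3 CPM (8.37 to 34.7), too few for a call. A UMI was present in 7 of 201 and 8 of 102 cells.

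**Figure D4:**
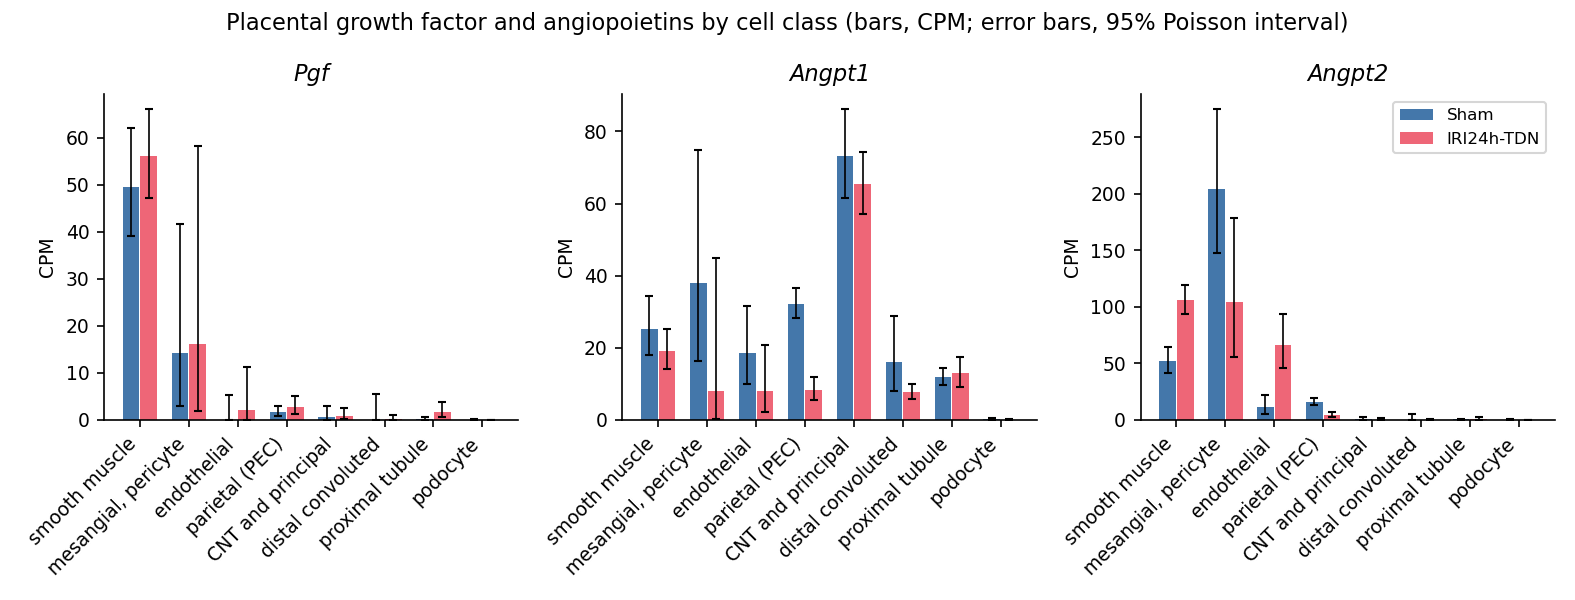
CPM of Pgf, Angpt1 and Angpt2 in 8 cell classes of Sham and IRI24h-TDN (error bars, 95% Poisson intervals). Pgf stood highest in smooth muscle-like cells in both libraries, Angpt1 in connecting tubule and principal-like cells (73.1 and 65.3 CPM), and Angpt2 in smooth muscle-like and mesangial and pericyte-like cells, and the endothelial Angpt2 bar of IRI24h-TDN held 24 of 33 UMIs of 1 cell.

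Taking a CPM ratio of at least 2 in either direction as a call, among genes with at least 20 UMIs over both libraries of a comparison, the members can be set beside all genes. In endothelial-like cells 8 of 10 members had enough UMIs and 2 were called, Nrp1 lower and Angpt2 higher, beside 16.0% of all genes tested. Vegfa there was 1201 and 624 CPM, a ratio of 0.519 (0.454 to 0.592), and passed 2-fold under 5 alternatives, at 0.320 to 0.426. In PEC-like cells 8 had enough and 4 were lower (Kdr, Flt1, Angpt1, Angpt2), beside 19.2%. In PTEC-like cells 6 had enough and 3 were lower (Vegfa, Kdr, Flt1), beside 31.3%. Nrp2 in these cells, from 31 and 6 UMIs, had a ratio of 0.551 and passed 2-fold lower under 7 alternatives, at 0.306 to 0.473. TMM scaling moved the share of higher calls among all genes from 54.5% to 41.1% in PTEC-like cells, and from 43.7% to 57.9% in ascending limb-like cells. In mural-like cells 6 had enough and none was called, beside 10.8%. In smooth muscle-like cells, one part of that class, 6 had enough and Angpt2 alone was called, beside 10.7%. Podocyte-like cells had 6 members with enough UMIs, of which Kdr and Tie1 were lower, beside 14.8%. Median log2 ratios of the members tested were -0.19 in endothelial-like, -1.32 in PEC-like, -1.03 in PTEC-like, 0.12 in mural-like and -0.40 in podocyte-like cells, beside -0.03, -0.03, 0.14, 0.02 and -0.05 over all genes.

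Several of these calls rested on traces of endothelial receptors. Kdr was 37 UMIs in 4254 podocyte-like cells of Sham and 19 in 5102 of IRI24h-TDN, and Tie1 20 and 8. In PEC-like cells Kdr was 25 UMIs and 1, and Flt1 33 and 1, with 17 of the 33 Flt1 UMIs and 10 of the 25 Kdr UMIs in 1 cell each. Without the cell of most UMIs of each gene, 2 members were called in PEC-like cells in place of 4. In PTEC-like cells Kdr was 25 and 1, and Flt1 26 and none. The summed level of the 11 endothelial markers in the same cells was 24.2 and 23.7 CPM in podocyte-like, 27.3 and 20.2 CPM in PEC-like and 19.2 and 11.6 CPM in PTEC-like cells, against 8792 and 10949 CPM in endothelial-like cells. The part of RNA from endothelial cells in these calls was not tested.

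Further along the nephron, distal convoluted tubule-like cells had 4 members with enough UMIs, of which Vegfa and Angpt1 were lower, beside 21.4%. Angpt1 rested on 11 and 55 UMIs, 16.1 and 7.62 CPM, and its ratio was 0.604 without the cell of most UMIs. Connecting tubule and principal-like cells had 3, with Nrp1 higher, beside 16.7%, and intercalated-like cells 3, with Nrp1 higher, beside 15.7%. Ascending limb-like cells had 2 and none was called, beside 21.5%, with Vegfa at a ratio of 0.523 and Nrp1 at 1.95. Vegfa was past 2-fold lower there under 5 alternatives, at 0.407 to 0.492, and Nrp1 past 2-fold higher under 2, at 2.19 with TMM factors and 2.10 without the cell of most UMIs. Monocytic-like cells had 5, with Flt1 and Nrp2 higher, beside 20.7%. Between both libraries after IRI, podocyte-like cells had 5 members with enough UMIs, and Kdr (19 and 6 UMIs) and Flt1 (27 and 9) were lower in IRI24h-TD, beside 3.70%. PEC-like cells had 4 and none was called, beside 4.65%.

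**Figure D5:**
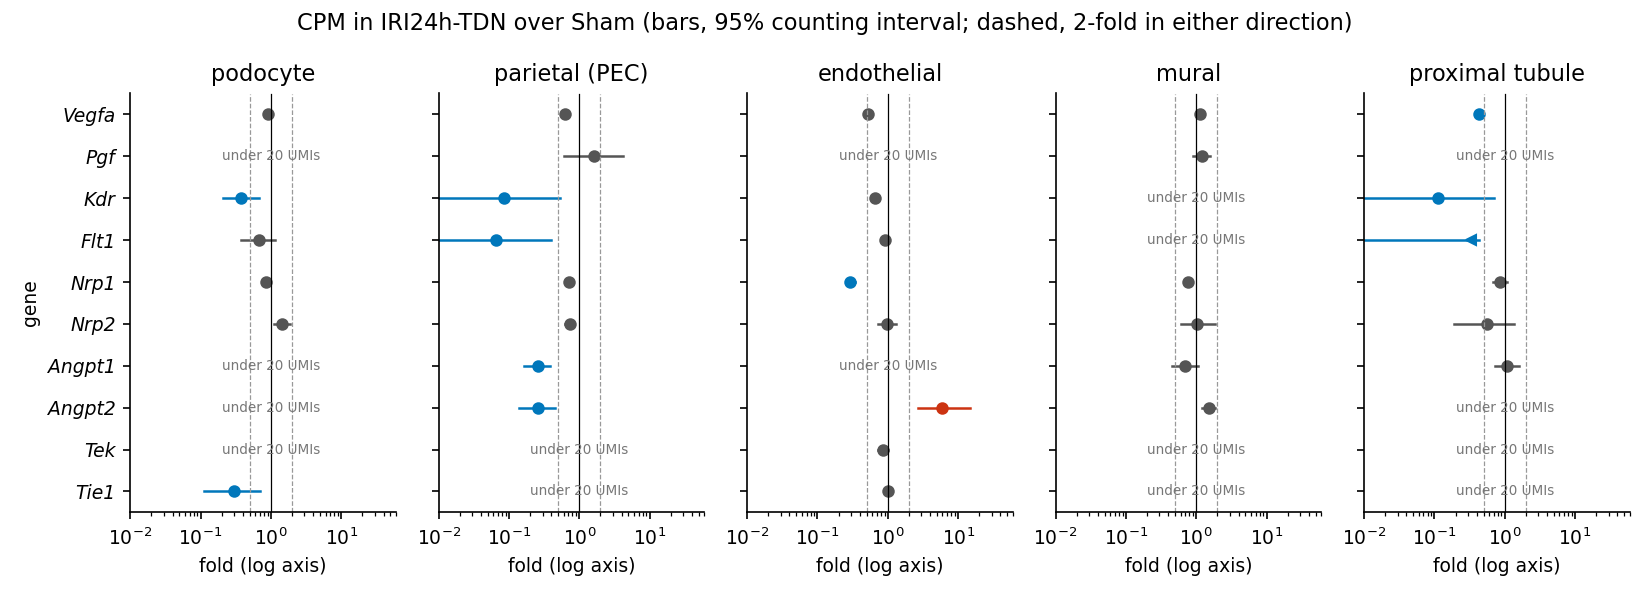
CPM in IRI24h-TDN over Sham on a log axis for members with at least 20 UMIs over both libraries, in 5 cell classes, with 95% counting intervals (some run past the left edge) and dashed lines at 2-fold in either direction. Blue marks calls lower and red calls higher in IRI24h-TDN, and the triangle is a ratio with the library without UMIs set to 3 counts. The interval of endothelial Nrp1 (0.253 to 0.339) was narrow. Those of Kdr and Flt1 in PEC-like and PTEC-like cells were wider, and rested on 26 to 34 UMIs over both libraries.

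Other genes of the pathway were read from a list of 49 names. In podocyte-like cells 34 had enough UMIs, 5 rose and 4 fell, beside 14.8% of all genes called. Those that rose were Ctgf, a matrix-associated growth regulator that binds VEGF, from 651 to 1696 CPM, Thbs1 (36.3 to 81.8 CPM) and Adamts1 (56.2 to 142 CPM), which encode secreted angiogenesis inhibitors, Shb, an adaptor of Kdr (23.1 to 53.7 CPM), and the neuropilin ligand Sema3a (0.604 to 4.34 CPM). Sema3g, another class 3 semaphorin, fell from 7039 to 2644 CPM, and the other 3, Plxnd1, Ptprb and Nos3, were at 3.51 CPM or less in both libraries.

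In endothelial-like cells 35 of the 49 had enough UMIs, 5 rose and 7 fell, beside 16.0% called. Adamts1 rose from 423 to 1601 CPM, Itgb3, an integrin subunit, from 15.6 to 109 CPM, Nos3, the endothelial nitric oxide synthase, from 19.9 to 92.9 CPM, Thbs1 from 17.0 to 56.5 CPM and Apln from 36.9 to 82.8 CPM. Esm1, a gene of VEGF-responsive endothelium, fell from 994 to 339 CPM, Sema3e from 258 to 115 CPM, Htra1 from 304 to 123 CPM and Egln3, an oxygen-sensing prolyl hydroxylase, from 143 to 58.5 CPM. Sema3b (38 and 7 UMIs) and Gpc1 (21 and 3) also fell. Over the libraries podocyte-like cells held Sema3e at 868 CPM, Htra1 at 696 CPM, Sema3b at 112 CPM, Gpc1 at 52.1 CPM and Egln3 at 49.7 CPM. Ptpro and Clic3 together went from 942 to 279 CPM in endothelial-like cells, and the part of podocyte RNA in these falls was not tested. Sema3e did not reach 2-fold under 3 alternatives, at 0.504 to 0.661, nor Htra1 under 2, at 0.510 and 0.762. Aplnr, the receptor of Apln, had 56 UMIs in Sham, and the IRI24h-TDN table did not list it. Of 8 oxygen-sensing genes, none was called in podocyte-like, PEC-like, PTEC-like or mural-like cells, where 7 had enough UMIs in each. All genes were called there at 14.8%, 19.2%, 31.3% and 10.8%. Apart from endothelial Egln3, 1 of 7 was higher and 2 lower in distal convoluted tubule-like cells, beside 21.4% of all genes. In ascending limb-like cells 1 of 7 was lower, beside 21.5%, and in monocytic-like cells 1 of 7 was higher, beside 20.7%. Lymphocyte-like and mesangial and pericyte-like cells each had 1 of 3 higher, beside 25.3% and 26.9%.

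In PEC-like cells 35 had enough UMIs, 3 rose and 6 fell, beside 19.2% called. Angpt4, a further angiopoietin, fell from 25.7 to 4.10 CPM, Svep1, a matrix protein, from 54.4 to 8.78 CPM, Sema3f from 40.6 to 17.3 CPM and Plxna4 from 14.7 to 3.805 CPM. Ccbe1, which helps activate VEGF-C, rose from 2.04 to 10.8 CPM, and Vegfc itself fell from 22.7 to 8.49 CPM, although its ratio was 0.742 in the clusters led by Sfrp5 and Upk1b alone. The calls of Apln and Ptprb, higher by 2.15-fold each, rested on 16 and 14 UMIs in each library. Ptprb was below 2-fold under 5 alternatives, at 1.38 to 1.98, and Apln under 4, of which 2 reversed it (0.726 and 0.606). Sema3g fell in PEC-like (436 to 169 CPM), PTEC-like (690 to 124 CPM) and mural-like cells (652 to 292 CPM), as in podocyte-like cells, whose RNA was present in these classes.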

How the data were processed

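The authors deposited raw UMI counts, genes by barcodes, as 1 table for each of the 3 libraries, made with a BD Rhapsody workflow. The submitters' processing notes name CASAVA 1.8, UMI-tools, Seurat and the mm10 build. Gene positions came from GENCODE annotation of GRCm38. Barcodes with at least 200 genes and at most 50% mitochondrial UMIs were kept, and no doublet caller was applied. Counts were scaled to 10000 UMIs per cell, logged, reduced over 2000 variable genes (without the 10 members, the pathway list, mitochondrial, ribosomal and haemoglobin genes) to 30 components, corrected between libraries with a Harmony procedure and clustered with Leiden (leidenalg 0.10.2, igraph 0.11.9) at resolution 1 into 28 clusters.

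A cluster was named when at least 3 markers, and no fewer than those missing, were each found in 25% of its cells. It kept no name where its depth was low or more markers of another class led it. Clusters of 741 cells (low depth) and 583 cells (led by another class) went unnamed so, although 10 of 10 podocyte markers were found in each. Their Vegfa was 3224 and 1694 CPM. Clusters with too few markers were divided once more, a step chosen after seeing the data, as were the splits by Ehd3 and Plvap and by Aqp2 and Calb1. Names were rebuilt from markers and may differ from those of the study, and 1435 cells kept no name. UMIs were summed per class and library. Ratios carry exact conditional binomial intervals, and a group at 0 was set to 3 counts. Genes with at least 20 UMIs over both libraries were called at 2-fold. With 1 library per condition, differences compare libraries and have no replicate check. Besides the members, pathway genes past 2-fold in a comparison described and those of highest CPM could be named, and 1 gene that the likeness rule selects is not reported here. Members, lists and markers were chosen with earlier results of these data known. The steps were tested on simulated data. Python 3.11.15, scipy 1.17.1, scikit-learn 1.9.0 and edgeR 4.0.16 (TMM factors) were used.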

Additional observations from a re-analysis of the deposited data

Results flagged for a closer look

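Some members differed by over 2-fold one way in one class and the other way in another class, and none of these differences between classes was tested. Flt1 was 15.3-fold higher in Sham than in IRI24h-TDN in PEC-like cells, from 33 UMIs and 1, with most of the 33 in 1 cell. It was at least 3.04-fold higher in Sham in PTEC-like cells, where IRI24h-TDN had no UMI and was set to 3 counts. In monocytic-like cells it was 3.35-fold higher in IRI24h-TDN. Most of those UMIs lay in the cluster led by Chil3 and Arg1. Flt1 was 25.1 and 23.4 CPM in its 24 cells of Sham and 194 of IRI24h-TDN. Nrp1 was 3.41-fold higher in Sham in endothelial-like cells, and higher in IRI24h-TDN by 2.003-fold in connecting tubule and principal-like cells and by 2.998-fold in intercalated-like cells, where 84.95% of the IRI24h-TDN level stood at the podocyte ratio to Ptpro and Clic3 and the cluster led by Hmx2 and Slc26a4 had a ratio of 1.23 (0.466 to 4.08). Angpt2 was 3.85-fold higher in Sham in PEC-like cells and 5.87-fold higher in IRI24h-TDN in endothelial-like cells, the latter resting on 1 cell with 24 of 33 UMIs.

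Barcodes with fewer than 200 genes, which entered no class, also held members above the limit that a count of 0 allows. Vegfa stood there at 81.1 CPM in Sham, 50.3 CPM in IRI24h-TDN and 122 CPM in IRI24h-TD, and Nrp1 at 5.40 CPM in Sham and 6.19 CPM in IRI24h-TDN.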

How the results depend on the processing

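No paired analysis was possible because each condition had 1 library, and for the same reason leaving out a replicate was not done. Of the single-gene values recomputed under other settings, 1123 kept their side of the 2-fold threshold or stayed within their interval, 25 became stronger, 40 weaker, 5 reversed and 9 moved. A reversal was counted only where a value passed 2-fold before or after. Changes of direction among smaller ratios are therefore part of the 1123. The cause was not tested except where the setting itself leaves fewer cells or genes.

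Over all libraries Vegfa in podocyte-like cells was 3486 CPM at most 20% mitochondrial UMIs, 3430.6 without the top 6% of doublet scores, 3459.4 without Harmony, 3435.1 at resolution 0.5, 3492.4 with TMM factors and 3479 as a mean per cell. Its IRI24h-TDN to Sham ratio was 0.93423 without those doublet scores, 0.93221 at resolution 0.5 and 0.99379 with TMM. Kdr in endothelial-like cells was 2976.1 CPM without the top doublet scores, 2560 without Harmony, 3009.9 with more variable genes, 2650.3 with TMM, 3301.8 as a mean per cell and 2700.9 in cells with Ehd3 or Plvap. TMM moved the median log2 ratio of all genes by 0.10 in podocyte-like, -0.22 in PTEC-like and 0.17 in ascending limb-like cells.

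Members called between IRI24h-TDN and Sham in podocyte-like cells numbered 4 without the top doublet scores, 1 at 50 UMIs and 4 at 1 UMI, in PEC-like cells 2 without the top cell and 2 at 50 UMIs, in endothelial-like cells 1 at 50 UMIs, 4 at 1 UMI and 4 at 1.5-fold, in mural-like cells 2 at 1 UMI and 1 at 1.5-fold, and in PTEC-like cells 0 without the top doublet scores, 1 at 50 UMIs and 5 at 1 UMI. Pathway genes called in podocyte-like cells numbered 18 at 1 UMI. Between IRI24h-TD and IRI24h-TDN, podocyte-like cells had 0 members called at 50 UMIs and 5 at 1 UMI.

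Apln in PEC-like cells reversed to 0.72638 without the top doublet scores and 0.60594 in the clusters led by Sfrp5 and Upk1b alone, Pgf in PEC-like cells to 0.48687 without Harmony and 0.34766 at resolution 2, and Thbs1 in PTEC-like cells to 0.94687 without Harmony. At most 20% mitochondrial UMIs left 239 of 770 mural-like cells.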

Other observations

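Vegfa in monocytic-like cells differed between their clusters. The C1qa-led cluster of 241 and 663 cells held 108 CPM in Sham and 82.8 CPM in IRI24h-TDN. The cluster led by Chil3 and Arg1 held 1500 CPM in 24 cells of Sham, of which 79.9% stood at the podocyte ratio to Ptpro and Clic3, and 618 CPM in 194 cells of IRI24h-TDN, of which 48.2% did. Vegfa beyond that ratio was 301 CPM in Sham and 320 CPM in IRI24h-TDN, where 62.4% of the cells had a Vegfa UMI. In Sham, 26.8% of the cluster's 179 Vegfa UMIs lay in 1 cell. A smaller cluster of 49 cells of IRI24h-TDN, led by Dcstamp and Tnip3, held 1838 CPM, of which 94.998% stood at the podocyte ratio.

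Within connecting tubule and principal-like cells, Vegfa was 614 CPM in Sham and 330 CPM in IRI24h-TDN where Aqp2 exceeded Calb1, and 331 and 144 CPM where Calb1 exceeded Aqp2. Nrp1 in the latter was 24.98 and 68.2 CPM, from 15 and 36 UMIs. In the PTEC-like cluster led by Slc22a19, Angpt1 was 12.7 CPM in Sham and 21.8 CPM in IRI24h-TDN, a ratio of 1.71 (1.11 to 2.58).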
